A study of Mus musculus with 16 samples.

Results

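The genes that specify primordial germ cells were followed through the differentiation of mouse embryonic stem cells (mESCs) toward endoderm and mesoderm. They were the 6 genes Prdm1, Prdm14, Tfap2c, Dppa3, Nanos3 and Dnd1, of 18716 genes that could be named in the fit, and each was read from the single-symbol probe set of highest mean over 16 Affymetrix Mouse Gene ST 1.0 arrays. They are named for their known role and not by a threshold on these values. The cells were T GFP/+; Foxa2 tagRFP/+ mESCs, in which fluorescent reporters of T and Foxa2 sit at 1 allele of each gene, and these alleles were shared by every group. Per the methods, the inserted GFP disrupts T at its allele, whereas tagRFP is fused to the Foxa2 reading frame. The labels give the line as E14.1, and the methods name the parental line as G4. All sorted cells came from cultures on feeders that express Wnt3a. T+ Foxa2- cells from mesoderm cultures, whose medium was the endoderm medium with Bmp4 (7.5 ng/ml) and activin A added at 3 ng/ml, were taken without the surface protein CD24 at day 4 (T+CD24neg D4) and at low CD24 at days 4 and 2 (T+CD24low D4 and D2). Foxa2+ T- cells from endoderm cultures with 12 ng/ml activin A were taken at high CD24 (F+CD24high) and at low CD24 (F+CD24low), each at days 4 and 2. Undifferentiated mESCs (day 0), kept on mouse embryonic fibroblasts, were not sorted. Each of the 8 groups had 2 arrays, which the labels call biological replicates.

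In the mouse embryo, primordial germ cells arise in the proximal posterior epiblast, where Bmp4 from the extraembryonic ectoderm, together with Wnt3, induces a few cells to switch on Prdm1 and Prdm14. Prdm1 (Blimp1) represses the somatic programme, Prdm14 restores pluripotency genes and drives epigenetic reprogramming, and Tfap2c (AP-2 gamma) acts downstream of them. Dppa3 (Stella) marks the specified cells, and the RNA-binding proteins Nanos3 and Dnd1 keep them alive as they migrate. Several of these genes also work elsewhere: Prdm1 in early endoderm, Tfap2c in trophoblast and surface ectoderm, and Dppa3 and Prdm14 in mESCs.

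Values are the log2 values of the arrays, so a difference of 1 is a doubling, and a gene is called higher or lower only with an absolute log2 difference above 1 and a limma adjusted p below 0.05. Array medians lay between 7.42 and 7.49 and replicate arrays correlated at r between 0.989 and 0.995. Foxa2, on which the cells were sorted, averaged 7.88 and 7.99 in T+CD24low cells at days 4 and 2, against 10.01 and 11.25 in F+CD24low cells. Cd24a averaged 11.08 in T+CD24neg D4 cells, 12.39 in T+CD24low D4 cells and 13.40 in F+CD24high D4 cells. Within the low gate it averaged 12.39 in T+CD24low D4 cells against 12.95 in F+CD24low D4 cells (-0.55, adjusted p = 0.0137), and 12.46 against 12.61 at day 2 (-0.15). The mean of the 12 definitive endoderm markers, Foxa2 among them, lay between 11.47 and 11.69 over the F+CD24high arrays and between 7.26 and 7.31 in mESCs. The labels also call F+CD24low cells definitive endoderm, but there this mean was only 9.57 to 9.69 at day 4 and 8.76 to 8.92 at day 2. The mean of 13 fibroblast feeder markers was 7.03 to 7.71 over all sorted arrays and 9.70 to 10.00 in mESCs. Among the F+CD24high D2 arrays it was 7.69 in replicate 2 and 7.11 in replicate 1. This feeder mean was 7.42 to 7.46 in T+CD24low D4 and 7.06 to 7.10 in F+CD24low D4 cells. Over both days 1 of the 13 was called higher in T+CD24low than in F+CD24low cells, Cdh11 (1.55), and 0 were called lower. Of all 18716 named genes 184 were called higher there. Every T+ group differs from every Foxa2+ group in medium as well as in reporter, and these cannot be told apart. In bulk RNA, fewer cells of a type and less RNA per cell cannot be told apart either.

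RefSeq promoters (GRCm38.p6, 250 bases before to 50 after a start) were at hand for only 2 of the 6 members, and both are printed. Of the members, Prdm1 had the widest and Nanos3 the narrowest range of group means. The Prdm1 window is chr10:44458699-44458998 and the Nanos3 window chr8:84176503-84176802, both on the minus strand, and the Prdm1 start lies inside the annotated gene. Capitals mark the Smad box, GTCT on either strand, the short element that Smad proteins of the activin and Bmp pathways bind.
Prdm1: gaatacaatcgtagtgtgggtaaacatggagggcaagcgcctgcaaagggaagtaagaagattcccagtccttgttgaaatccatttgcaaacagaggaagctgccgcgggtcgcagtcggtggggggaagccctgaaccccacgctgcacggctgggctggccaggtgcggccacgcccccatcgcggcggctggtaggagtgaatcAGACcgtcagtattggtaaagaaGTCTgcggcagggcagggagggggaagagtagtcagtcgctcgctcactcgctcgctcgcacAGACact
Nanos3: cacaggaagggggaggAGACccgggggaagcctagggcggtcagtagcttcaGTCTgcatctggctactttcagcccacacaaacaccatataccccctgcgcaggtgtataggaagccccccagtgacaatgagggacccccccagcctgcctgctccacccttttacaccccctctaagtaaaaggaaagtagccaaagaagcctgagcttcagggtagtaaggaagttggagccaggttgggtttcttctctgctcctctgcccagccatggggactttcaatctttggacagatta
The Prdm1 window held 3 Smad boxes and the Nanos3 window 2, and 88.0% of the 32851 promoters of this length in the table hold at least 1. A Tfap2 motif, GCCNNNGGC, was found once in the Nanos3 window, at position 30 from its first base, and not in the Prdm1 window (16.6% of promoters hold it). The GC-rich Smad element GGCGCC (11.9% of promoters), the Smad palindrome GTCTAGAC, which contains the Smad box (0.213%), the T-box site AGGTGTGA (1.28%) and the Prdm1 motif AGTGAAAG (1.32%) had 0 matches in both windows on either strand.

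The 6 genes did not share 1 pattern over the 8 groups, but 5 of them had their highest level among the sorted cells in T+CD24low D4 cells. For Prdm14, Tfap2c, Dppa3, Nanos3 and Dnd1 both T+CD24low D4 arrays lay above all 12 arrays of the other 6 sorted groups, an order that 3.43% of all probe sets showed. Prdm1 was the exception, with its highest level in F+CD24high cells. The range of group means was 3.63 for Prdm1, 2.87 for Tfap2c, 2.37 for Prdm14, 2.23 for Dppa3, 0.87 for Dnd1 and 0.59 for Nanos3, against a pooled replicate SD of 0.08 to 0.21.

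**Figure D1:**
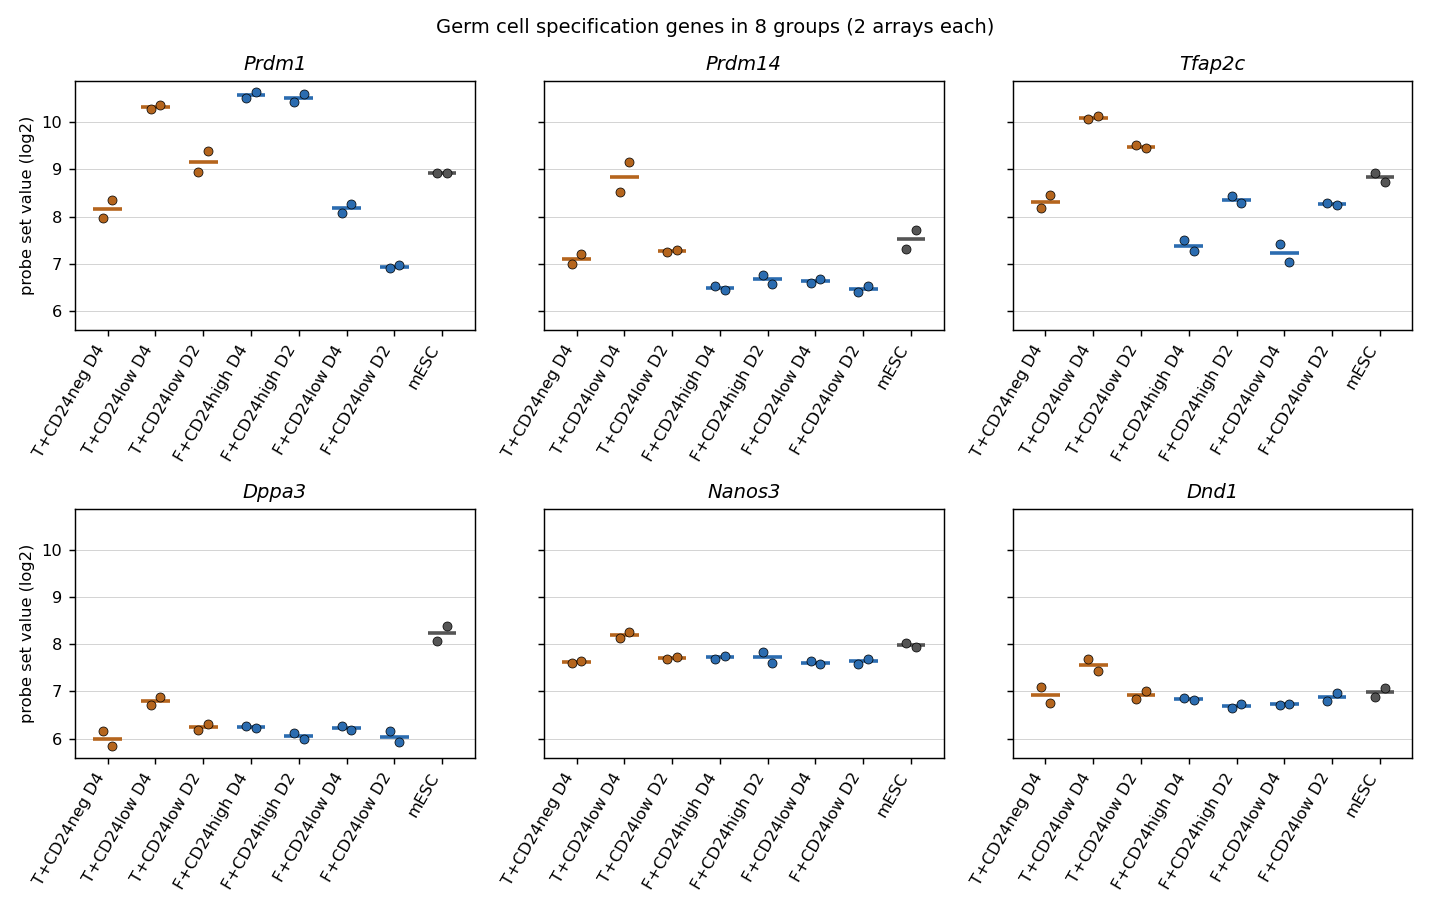
Probe set values (log2, vertical axis) of the 6 genes in the 8 groups (horizontal axis), with a point for each array and a bar for the mean of the 2 arrays. T+ groups are brown, Foxa2+ groups blue and mESCs grey. Prdm14, Tfap2c, Dppa3, Nanos3 and Dnd1 have their highest sorted level in T+CD24low D4 cells, whereas Prdm1 is as high in both F+CD24high groups, and Dppa3 is highest in mESCs.

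T+CD24low cells were compared with F+CD24low cells to set mesoderm progenitors against endoderm progenitors within the low CD24 gate. Over both days, the transcription factors Prdm1, Tfap2c and Prdm14 were higher in T+CD24low cells, 3 of the 6 members, and 0.944% of all probe sets were called higher in this comparison. For the same 3 genes each of the 4 T+CD24low arrays lay above each of the 4 F+CD24low arrays, as for 5.36% of probe sets. The median difference of the 6 members was 0.97, against -0.00 over all probe sets. Dppa3, Nanos3 and Dnd1 were not called.

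Tfap2c had values of 10.06 and 10.14 in T+CD24low D4 cells, against 7.42 and 7.05 in F+CD24low D4 cells. At day 2 it had 9.52 and 9.44 in T+CD24low cells, against 8.28 and 8.24 in F+CD24low cells. The T+CD24low arrays were thus above the F+CD24low arrays on both days, with the wider gap at day 4. The difference was 2.87 at day 4 (standard error 0.14, adjusted p = 1.94e-07), 1.22 at day 2 (adjusted p = 5.77e-04) and 2.04 over both days (4.13-fold, adjusted p = 1.82e-07).

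Prdm1 had values of 10.29 and 10.37 in T+CD24low D4 cells, against 8.09 and 8.28 in F+CD24low D4 cells. At day 2 the values were 8.94 and 9.39 in T+CD24low cells, against 6.90 and 6.97 in F+CD24low cells. Its gap was of like size on both days, since both populations were higher at day 4. The difference was 2.15 at day 4 (standard error 0.16, adjusted p = 3.81e-06), 2.23 at day 2 (adjusted p = 1.58e-05) and 2.19 over both days (4.56-fold, adjusted p = 2.87e-07).

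Prdm14 had values of 8.51 and 9.15 in T+CD24low D4 cells, against 6.59 and 6.67 in F+CD24low D4 cells. At day 2 it had 7.25 and 7.28 in T+CD24low cells, against 6.41 and 6.52 in F+CD24low cells. The groups did not overlap on either day. The difference was 2.20 at day 4 (standard error 0.19, adjusted p = 1.31e-05), 1.50 over both days (2.84-fold, adjusted p = 1.74e-05) and 0.80 at day 2, which met neither threshold (adjusted p = 0.0510). The call over both days was lost in a limma test against a log2 difference of 1 (treat, adjusted p = 0.201).

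The remaining members differed less. Dnd1, a partner of Nanos proteins on mRNA, had 7.69 and 7.43 in T+CD24low D4 cells, against 6.71 and 6.74 in F+CD24low D4 cells (0.83, adjusted p = 0.0017). Nanos3 had 8.14 and 8.25 in T+CD24low D4 cells, against 7.64 and 7.58 in F+CD24low D4 cells (0.59, adjusted p = 0.0018). Dppa3 had 6.72 and 6.89 in T+CD24low D4 cells, against 6.27 and 6.19 in F+CD24low D4 cells (0.57, adjusted p = 0.0241). All 3 met the threshold on p but not the one on the size of the difference, so they were not called. A 2nd probe set of Dppa3 had 5.74 and 6.41 in T+CD24low D4 cells, against 5.37 and 5.21 in F+CD24low D4 cells.

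At day 4, then, all 6 members had both T+CD24low arrays above both F+CD24low arrays, an order of 22.2% of probe sets, and the 3 transcription factors were called higher, with 1.55% of probe sets called higher. At day 2, Prdm1 and Tfap2c were called higher, with 0.456% of probe sets called higher. The difference at day 2 was 0.20 for Dppa3 (95% interval -0.11 to 0.50), 0.08 for Nanos3 (-0.13 to 0.28) and 0.04 for Dnd1 (-0.25 to 0.34), so these intervals held 0, whereas that of Prdm14 (0.39 to 1.22) did not.

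**Figure D2:**
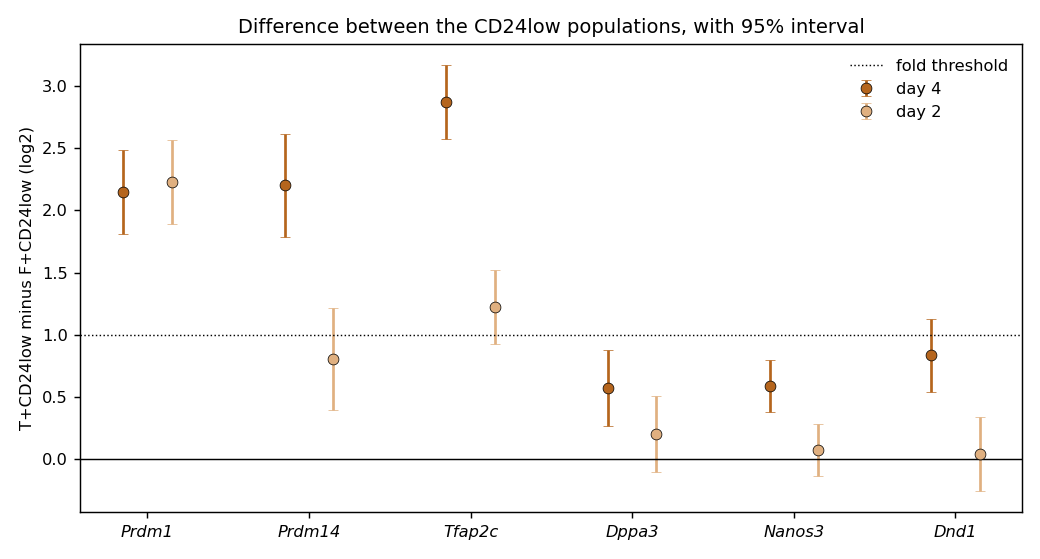
Difference between T+CD24low and F+CD24low cells (log2, vertical axis) for each gene at day 4 (dark) and day 2 (light), with 95% intervals from the limma fit and the fold threshold as a dotted line. Tfap2c widens to 2.87 at day 4 and Prdm14 to 2.20, whereas Prdm1 stays near 2 on both days.

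The gap between T+CD24low and F+CD24low cells was wider at day 4 than at day 2 for Tfap2c (by 1.65, standard error 0.19, adjusted p = 9.61e-04) and Prdm14 (by 1.40, standard error 0.27, adjusted p = 0.0181). These 2 members were called in this test of the change, with 0.809% of probe sets called in that direction. The change was 0.79 for Dnd1 (adjusted p = 0.0634), 0.51 for Nanos3 (adjusted p = 0.0959), 0.37 for Dppa3 (adjusted p = 0.557) and -0.08 for Prdm1 (95% interval -0.56 to 0.40, adjusted p = 0.960). The call of Prdm14 was lost, at values of 1.34 to 1.46 and adjusted p of 0.056 to 0.074, whenever either F+CD24low D2, either F+CD24low D4 or either T+CD24low D2 array was left out.

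The 2 days were then compared within each population. In T+CD24low cells, Prdm14 was higher at day 4 than at day 2 (by 1.56, adjusted p = 4.44e-04), as was Prdm1 (by 1.16, adjusted p = 9.63e-04), and 1.05% of probe sets were called higher in this step. All 6 members were above 0 there, with Dnd1 at 0.63, Tfap2c at 0.62, Dppa3 at 0.56 and Nanos3 at 0.48, none of them called. The call of Prdm1 was lost without T+CD24low D2 replicate 1 (0.94). In F+CD24low cells, Tfap2c was lower at day 4 than at day 2 (by 1.03, adjusted p = 0.0054), with 0.0688% of probe sets called lower. Prdm1 was higher at day 4 there (by 1.24, adjusted p = 0.0040), with 0.225% called higher, whereas Prdm14 was at 0.17 (adjusted p = 0.940). With F+CD24low D4 replicate 2 left out neither was called in F+CD24low cells (Prdm1 1.15, Tfap2c -0.84), and the call of Tfap2c was also lost when either F+CD24low D2 array was left out (-1.01 without replicate 1 and -1.05 without replicate 2).

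T+ cells without CD24 were compared with T+CD24low cells of the same day to follow the genes into mesoderm. The same 3 transcription factors were lower in T+CD24neg D4 cells, where 0.778% of probe sets were called lower. Prdm1 had 7.97 and 8.35 in T+CD24neg D4 cells, against 10.29 and 10.37 in T+CD24low D4 cells (-2.17, adjusted p = 2.66e-05). Tfap2c had 8.19 and 8.45 in T+CD24neg D4 cells, against 10.06 and 10.14 (-1.78, adjusted p = 3.29e-05), and Prdm14 had 6.99 and 7.21 in T+CD24neg D4 cells, against 8.51 and 9.15 (-1.73, adjusted p = 3.34e-04). The groups did not overlap for any of the 6 members, but the share of all probe sets without overlap was not counted here. With 2 arrays on each side it can be large: 22.2% of probe sets had T+CD24low D4 above F+CD24low D4 arrays. Dppa3 differed by -0.80 (6.16 and 5.84 in T+CD24neg D4 cells), Dnd1 by -0.64 (7.10 and 6.75) and Nanos3 by -0.57 (7.61 and 7.65), with adjusted p of 0.0071, 0.0230 and 0.0057 in that order, all under the fold threshold. The median of the 6 was -1.27, against 0.01 over all probe sets.

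Of the 6 members, Prdm1 alone was higher in Foxa2+ cells with high CD24 than in those with low CD24. It had 10.51 and 10.63 in F+CD24high D4 cells, against 8.09 and 8.28 in F+CD24low D4 cells (2.39, adjusted p = 1.15e-06), where 2.11% of probe sets were called higher. At day 2 it had 10.42 and 10.60 in F+CD24high cells, against 6.90 and 6.97 in F+CD24low cells (3.57, or 11.9-fold, adjusted p = 1.46e-07), with 1.18% called higher. Leaving out either F+CD24high D2 array, or either F+CD24low D2 array, kept this value between 3.48 and 3.66. Its order over the groups ran F+CD24high D4, F+CD24high D2 and T+CD24low D4, whose neighbours did not differ beyond their 95% intervals, then T+CD24low D2 and mESCs, which did not differ either, then F+CD24low D4 and T+CD24neg D4, and last F+CD24low D2. No other member was called between the CD24 gates of the Foxa2+ cells: their differences were between -0.20 and 0.21 at day 2 and between -0.14 and 0.15 at day 4. Between F+CD24high D4 and D2 cells 0 of the 6 members were called by limma, with 1.38% of probe sets called in either direction, and Tfap2c, at 7.50 and 7.28 in D4 cells, against 8.43 and 8.29 in D2 cells, came closest (-0.97, adjusted p = 0.0016, the 1 member with an unadjusted p below 0.05). It was called without F+CD24high D2 replicate 2 (-1.04) or without F+CD24high D4 replicate 1 (-1.08). T+CD24neg D4 cells set against F+CD24high D4 cells were lower in Prdm1 (-2.41, adjusted p = 5.72e-07), where 2.92% of probe sets were called lower. Tfap2c (0.93, adjusted p = 3.94e-04) and Prdm14 (0.61, adjusted p = 0.0406) had positive values there that were not called, though Tfap2c was called without F+CD24high D4 replicate 1 (1.04) or without T+CD24neg D4 replicate 1 (1.06).

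The sorted groups were compared with mESCs, which themselves transcribe part of this gene set. Dppa3 lay between 5.84 and 6.89 on the 14 sorted arrays, against 8.07 and 8.39 in mESCs, with no overlap. It was lower in all 7 sorted groups, by 1.43 in T+CD24low D4 cells (adjusted p = 2.14e-05) and by 1.99 to 2.23 in the other 6. Its 2nd probe set had 5.74 and 6.41 in T+CD24low D4 cells and 5.06 to 5.37 in the other sorted cells, against 7.60 and 8.07 in mESCs. T+CD24low D4 was the one sorted group in which this mESC gene stood above the others on both probe sets, though still below mESCs.

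In T+CD24low D4 cells, Prdm1 (1.40, adjusted p = 5.68e-05), Prdm14 (1.31, adjusted p = 4.10e-04) and Tfap2c (1.27, adjusted p = 4.38e-05) were higher than in mESCs, with 2.26% of probe sets called higher and 3.20% lower. Prdm14 had 7.31 and 7.73 in mESCs and Tfap2c 8.91 and 8.74. Without T+CD24low D4 replicate 2, Prdm14 was just under the fold threshold (0.99). Dnd1 was at 0.58 (adjusted p = 0.0096) and Nanos3 at 0.21 (adjusted p = 0.155), both under the fold threshold, with 6.89 and 7.07 for Dnd1 and 8.02 and 7.95 for Nanos3 in mESCs. In T+CD24low D2 cells Dppa3 alone was called (2.61% of probe sets lower), with Tfap2c at 0.65 (adjusted p = 0.0068). In T+CD24neg D4 cells Dppa3 was also the single call (3.43% lower), with Prdm1 at -0.76 and Tfap2c at -0.51.

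In the Foxa2+ groups, members other than Prdm1 were at or below their mESC level. Prdm1 was higher in F+CD24high cells at day 4 (1.65, adjusted p = 8.87e-06; 3.57% of probe sets higher) and day 2 (1.59, adjusted p = 1.85e-05; 2.25% higher) and lower in F+CD24low D2 cells (-1.98, adjusted p = 6.04e-06). Tfap2c was lower in F+CD24high D4 (-1.44) and F+CD24low D4 cells (-1.60). Prdm14 was lower in F+CD24high D4 (-1.03) and F+CD24low D2 cells (-1.05) and was at -0.85 and -0.89 in F+CD24high D2 and F+CD24low D4 cells, which were not called. These Prdm14 values lay so near the threshold that leaving out mESC replicate 2 ended both calls (-0.82 and -0.85), as did leaving out F+CD24high D4 replicate 2 (-0.99) or F+CD24low D2 replicate 1 (-0.996) for its own comparison. Without mESC replicate 1, by contrast, the other 2 values were called as well (-1.06 in F+CD24high D2 and -1.10 in F+CD24low D4 cells). The shares of probe sets called lower were 5.19% in F+CD24high D4, 4.40% in F+CD24high D2, 2.71% in F+CD24low D4 and 2.47% in F+CD24low D2 cells. All 7 comparisons share the same 2 mESC arrays, which also carried the feeder markers given above, and the part of feeder RNA in these values was not tested.

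**Figure D3:**
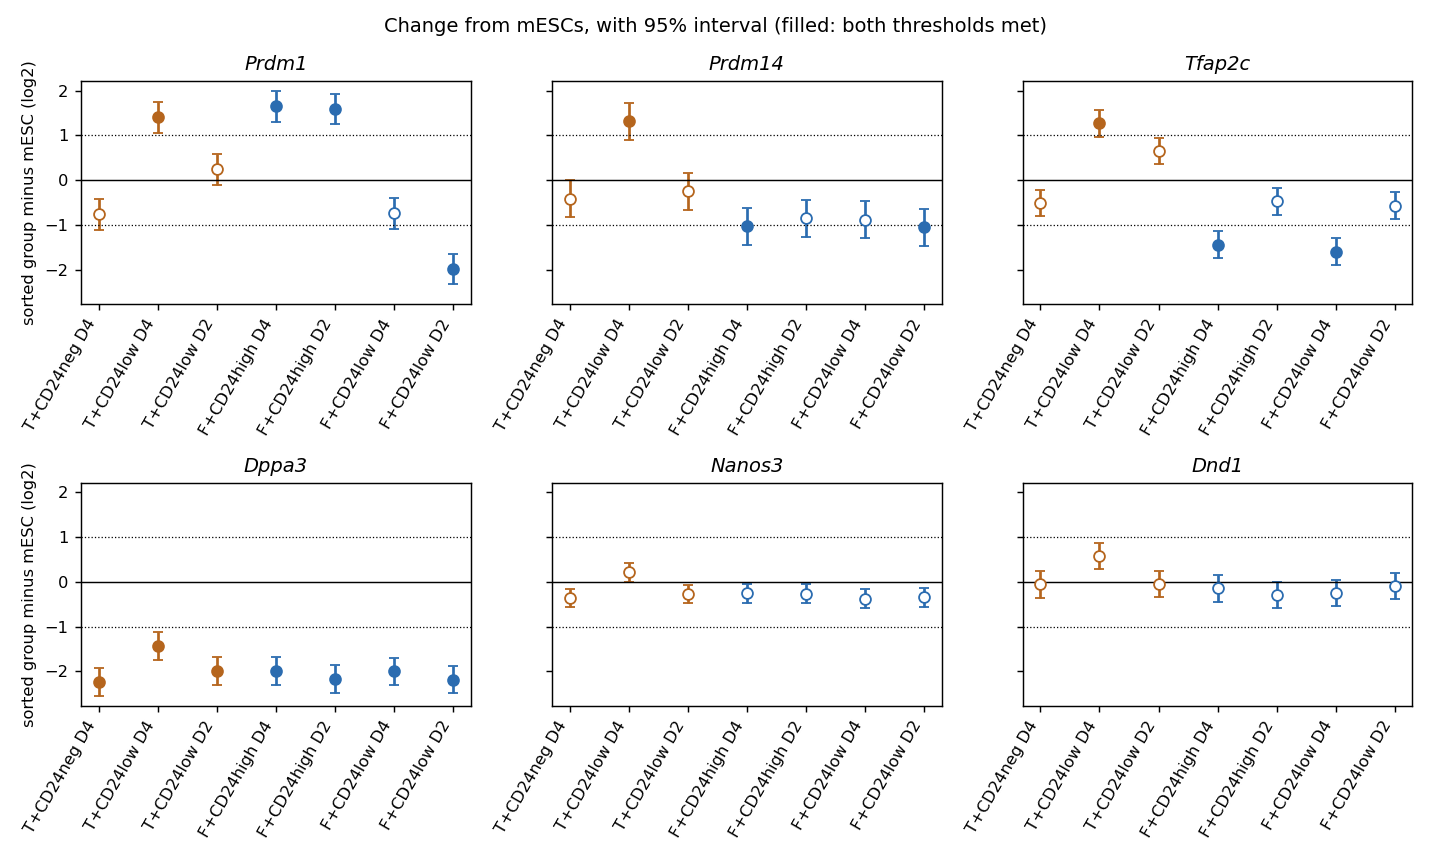
Difference of each sorted group from mESCs (log2, vertical axis) for the 6 genes, with 95% intervals; filled points met both thresholds and the dotted lines mark a difference of 1 in either direction. Prdm1, Prdm14 and Tfap2c are above mESCs in T+CD24low D4 cells, Prdm1 also in both F+CD24high groups, and Dppa3 is below mESCs in every group.

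Over the 8 group means, Prdm14 correlated with Dnd1 at r = 0.93, with Nanos3 at 0.90 and with Tfap2c at 0.85, while Prdm1 correlated with the other 5 at 0.11 to 0.48. Dppa3 correlated with Nanos3 at 0.67 over 8 means and at 0.93 over the 7 sorted ones. These values describe groups that share media and gates. For Nanos3 and Dnd1 the highest mean was that of T+CD24low D4 cells, and its part in these correlations was not tested. Of 3784 named genes with a range of group means above 1, those most like Prdm14 over the 16 arrays were Ifi35, an interferon-induced gene (r = 0.96), the kinase subunit gene Pik3cd (0.95), Gbp3, an interferon-induced GTPase (0.93), Hoxc9 (0.93) and Klf8 (0.93). Those most like Tfap2c were the zinc transporter gene Slc30a2 (0.94), the interferon regulatory factor Irf1 (0.91), Nmi (0.91), the immunoproteasome subunit gene Psmb10 (0.90) and again Ifi35 (0.89). Prdm1 had Sgpl1 (0.89), the glucose transporter gene Slc2a3 (0.89), the epithelial transcription factors Grhl3 (0.87) and Elf3 (0.87) and Cemip2 (0.85). Dppa3 had Dapp1 (0.98), Slco4c1 (0.98), the Wnt inhibitor Notum (0.96), Sting1 (0.96) and the naive pluripotency factor Esrrb (0.96). Irf1 averaged 10.88 in T+CD24low D4 cells and 8.23 in F+CD24low D4 cells, and Grhl3 9.67 and 8.64 in the same order of groups.

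Related genes were read from lists written from general knowledge but with earlier results of these data known. Counts over these lists and the marker lists below therefore describe the data and are not tests. Of 19 other early germ cell genes, 4 were higher in T+CD24low than in F+CD24low cells over both days and 1 was lower (median 0.25), while of all 18716 named genes 184 were higher and 187 lower (median -0.00). Those that were higher were Alpl (2.50), the alkaline phosphatase by which germ cells are stained, the interferon-inducible surface protein genes Ifitm1 (2.48) and Ifitm3 (2.42) and the adhesion gene Pecam1 (1.04), and the homeobox gene Hesx1 was lower (-1.15). Alpl averaged 11.35 in T+CD24low D4 cells, against 7.82 in F+CD24low D4 cells, and Ifitm3 13.08 against 9.94. Both were also high in T+CD24neg D4 cells (Alpl 11.29, Ifitm3 12.28), unlike the 3 transcription factors, and in mESCs (Alpl 11.01, Ifitm3 12.58). Kit, the receptor that germ cells need to survive and a gene chosen here after its values were seen, was higher in T+CD24low cells at day 4 (1.20) and lower at day 2 (-1.30), a change of 2.49 (adjusted p = 1.32e-04), but its highest means were in F+CD24high cells (11.49 at day 4 and 11.57 at day 2). Of 18 later germline genes 0 were called by limma in T+CD24low compared with F+CD24low cells, on either day or over both (medians between -0.00 and 0.00). Over both days 3 of the 18 had an unadjusted p below 0.05, as had 4427 of the 18716 named genes. The one of largest difference was Tdrd5 (0.92 over both days). The germ cell markers Ddx4 (5.21) and Dazl (5.10) were near the bottom of the scale in T+CD24low D4 cells, against 5.19 and 5.32 in F+CD24low D4 cells, and were chosen after their values were seen.

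Bmp4, which induces germ cells in the embryo, was itself higher in T+CD24low cells (2.78), with a mean of 12.19 in T+CD24low D4 cells against 8.11 in F+CD24low D4 cells. Kitl, the ligand of Kit, was higher too (1.16), and the other 14 of 16 ligand and receptor genes were not called. Of 14 Smads and Bmp target genes 5 were higher and 0 lower (median 0.32), while of all 18716 named genes 184 were higher and 187 lower. The 5 were Msx2 (2.89), Id2 (2.73), Id1 (2.44), Msx1 (1.14) and the inhibitory Smad6 (1.01). Bmp4 protein was in the mesoderm medium only, so these values and the lineage cannot be told apart. Of 18 germ line partners and chromatin enzymes 0 were called by limma over both days and 1 at day 4, Dnmt3b, a DNA methyltransferase (-1.70). Over both days 5 of the 18 had an unadjusted p below 0.05, as had 4427 of the 18716 named genes. Of 16 pluripotency genes that germ cells also use 0 were higher over both days and 1 was lower, Utf1 (-2.05). Pou5f1 was at -0.30 (adjusted p = 0.415), Nanog at -0.36 (adjusted p = 0.0211) and Sox2 at -0.37, all below the fold threshold. At day 4, 2 of the 16 were lower and 0 higher, with 331 of the 18716 named genes called lower. Tdgf1 then averaged 11.50 in T+CD24low D4 cells, against 12.96 in F+CD24low D4 cells. In the same order Pou5f1 averaged 12.03 and 12.62, Nanog 11.79 and 12.31 and Sox2 10.41 and 11.03.

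Within their own families the members were not alone. Of 13 Prdm genes measured, Prdm6, a regulator of smooth muscle, was higher in T+CD24low cells (1.92) besides Prdm1 and Prdm14, and the family median was -0.08. Unlike them, Prdm6 was higher still in T+CD24neg D4 cells, with a mean of 11.36, against 10.08 in T+CD24low D4 cells. Of 5 Tfap2 genes, Tfap2a was higher (1.98) besides Tfap2c, and like Tfap2c it was lower in T+CD24neg D4 cells, with a mean of 7.61, against 9.34 in T+CD24low D4 cells (-1.73). Of 7 genes of the Nanos and Dppa families 0 were called by limma on either day or over both. At day 4, 4 of the 7 had an unadjusted p below 0.05, as had 4311 of the 18716 named genes. Of 14 somatic genes that are repressed in germ cells, several of them by Prdm1, 6 were higher and 0 lower in T+CD24low cells (median 0.91). Among them were the posterior factor Cdx2 (2.82) and the mesoderm factors Hand1 (2.79), Mesp1 (1.60) and Tbx3 (1.35). Over both days, the comparison behind these family and list counts, 184 of the 18716 named genes were higher and 187 lower.

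**Figure D4:**
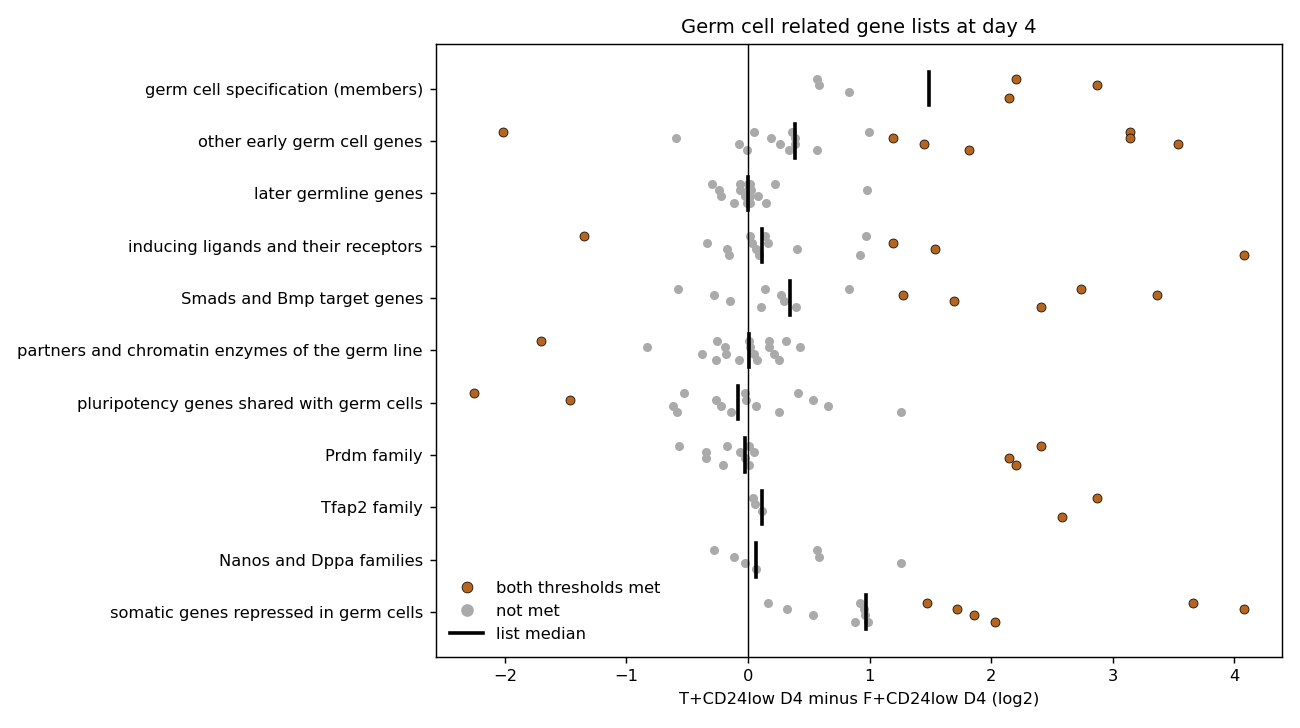
Difference between T+CD24low D4 and F+CD24low D4 cells (log2, horizontal axis) for each gene of the members and 10 related lists (rows); coloured points met both thresholds and black bars are list medians. The members have a median of 1.49 and the later germline genes a median of -0.00.

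Markers of other cell types moved with the same comparison. The mean of 12 trophoblast and amnion markers was 8.52 to 8.61 in T+CD24low D4 cells, against 7.49 to 7.51 in F+CD24low D4 cells, with 5 of 12 higher at day 4, among them Cdx2, Hand1 and Tfap2a, and 1 lower, the keratin gene Krt7 (-1.91). Of all 18716 named genes 334 were higher and 331 lower at day 4. The trophoblast factor Elf5, chosen after its values were seen, was at 6.47 in T+CD24low D4 cells and 6.37 in F+CD24low D4 cells and was not called. The mean of 9 surface ectoderm markers was 7.85 to 7.96 against 7.20 to 7.24 in the same order, with 3 higher. These were Tfap2a (9.34 and 6.75), Dlx5 (7.59 and 6.46) and Grhl3 (9.67 and 8.64). The epidermal factor Trp63, also chosen after its values were seen, was at 7.35 and 7.39 and was not called. The trophoblast and amnion mean was higher still in T+CD24neg D4 cells (8.70 to 8.71) and was 8.32 to 8.36 in F+CD24high D4 cells. The surface ectoderm mean was 7.78 to 7.88 in F+CD24high D4 and 7.35 to 7.47 in T+CD24neg D4 cells. The mean of 12 extraembryonic and lateral mesoderm markers was 9.21 to 9.30 in T+CD24low D4 cells and 7.57 to 7.63 in F+CD24low D4 cells, with 8 higher and 0 lower, led over both days by Foxf1 (4.10), Hand1 (2.79) and Kdr (1.84). That mean was higher again in T+CD24neg D4 cells (9.70 to 9.74), in which Prdm1, Prdm14 and Tfap2c were lower. Over both days, 5 of 12 definitive endoderm markers were lower in T+CD24low cells and 0 higher, led by Cer1 (-4.16), Foxa2 (-2.69) and Dkk1 (-1.97). Foxa2 is the gene sorted on, so its direction was set by the gate. Of 10 visceral endoderm markers 1 was lower, Cubn (-2.55). Cubn averaged 10.12 in F+CD24low D2 cells and 5.63 to 7.90 in all other groups, with 6.54 in F+CD24low D4 cells. The other way, 1 definitive endoderm marker was higher in T+CD24low cells at day 4, Krt19 (1.32), and 1 at day 2, Gata4 (1.14), both chosen after their values were seen. The part of these cell types in the levels of the 6 genes was not tested, and the arrays cannot say whether the genes were transcribed in the same cells.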

How the data were processed

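Total RNA of 16 samples was amplified and hybridized to Affymetrix Mouse Gene ST 1.0 arrays. The authors ran the robust multichip average over the whole set of arrays (RMA, oligo 1.48.0 per the submitters' processing notes), and the deposited table holds 1 log2 value for each of 35556 probe sets and each array. Such values bring all arrays to 1 distribution and compress differences of dim genes. The number of arrays limits the precision.

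A filter kept the 32000 brightest probe sets by mean. limma 3.58.1 (R 4.3.3) fitted the 8 group means, with no block or covariate. P-values were adjusted by Benjamini-Hochberg over these probe sets. Of the probe sets kept, 20427 had a single symbol in the platform annotation, 1400 several and 10173 none, and no gene was named from several symbols. Of 207 listed genes 11 were not measured. From each list up to 4 genes called over both days, those of largest difference in each direction, were named, and up to 3 from each marker list. Smad6, Tdrd5, Dnmt3b, Pou5f1, Nanog, Sox2, Tdgf1, Elf5 and Trp63 were named outside this rule, with their values known. The members, lists and rules were chosen with earlier results of these data known. The fit was tested on simulated data. Alternatives changed the filter, scaling, variance model, test, threshold, probe set choice, arrays fitted and replicate block. Gene T was not analysed here.

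Replicate numbers showed little sign of pairing the samples: of 28 pairs of groups, 8 had deviations that correlated above 0.1 (median 0.04, range -0.20 to 0.25). Such correlations cannot exclude that arrays of the same number came from the same differentiation.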

Additional observations from a re-analysis of the deposited data

Results flagged for a closer look

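The difference between T+CD24low and F+CD24low cells changed with the day, by the test of that change itself, for Tfap2c (1.65 wider at day 4 on the log2 scale, limma adjusted p = 9.61e-04) and for Prdm14 (1.40 wider at day 4, limma adjusted p = 0.0181). Tfap2c was above F+CD24low cells on all T+CD24low arrays of both days, and so was Prdm14.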

How the results depend on the processing

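Of 1488 values of the members under an alternative, 1396 kept their direction and their side of the thresholds, 36 lost and 34 gained a call, and 22 changed sign, 0 of them among called values. Over both days, 3 members were called in T+CD24low compared with F+CD24low cells whichever array was left out, and 2 at day 2. With the replicate number as a block, 3 members were called over both days, 3 at day 4 and 2 in the change with the day, and no count of calls moved by over 1.5 times in any comparison. Centring or quantile scaling, the trended robust variance and no filter changed no call.

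With 16000 probe sets kept, only Prdm1 and Tfap2c of the members stayed in the table. The members called were then 1 in the change with the day; against mESCs 0 in T+CD24neg D4, 2 in T+CD24low D4, 0 in T+CD24low D2, 2 in F+CD24high D4, 1 in F+CD24high D2, 1 in F+CD24low D4 and 1 in F+CD24low D2; and 1 in T+CD24low D4 compared with D2. By adjusted p alone, 6 were called in T+CD24low compared with F+CD24low cells over both days and 6 at day 4. Of the 18716 named genes, 2228 and 2192 had such a p in that order. In T+CD24neg D4 compared with T+CD24low D4 cells 6 were called, where 860 of the 18716 had such a p. The share over all genes was not counted for the other comparisons and settings of this paragraph, so their counts have no baseline. Against mESCs, adjusted p alone called 4 in T+CD24neg D4, 2 in T+CD24low D2, 4 in F+CD24high D2, 5 in F+CD24low D4 and 5 in F+CD24low D2. Between days it called 6 in T+CD24low and 1 in F+CD24high cells. It called 3 in T+CD24neg D4 compared with F+CD24high D4 cells. A test against a fold of that size (treat) called 2 over both days, without Prdm14 (adjusted p = 0.201), 1 at day 2, 0 in the change with the day, 0, 2 and 1 against mESCs in T+CD24low D4, F+CD24high D4 and F+CD24high D2, 0 between days in T+CD24low and 0 in F+CD24low cells, and 1 in T+CD24neg D4 compared with T+CD24low D4. Fitting only the F+CD24low arrays left 0 called between their days.

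Leaving out 1 array gave counts of 1 to 2 for the change with the day, 0 to 2 between days in F+CD24low, 1 to 2 in T+CD24low and 0 to 1 in F+CD24high cells, and 1 to 2 for T+CD24neg D4 compared with F+CD24high D4.

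The values that changed sign were near 0. With the mean of all probe sets, Dppa3 in F+CD24high compared with F+CD24low cells was -0.029 at day 2 and -0.040 at day 4. With 1 array left out, the range was -0.10 to 0.13 at day 2 and -0.033 to 0.048 at day 4 for Dppa3, -0.039 to 0.20 at day 2 for Nanos3 and -0.030 to 0.34 at day 4 for Tfap2c in that comparison. Between F+CD24high D4 and D2 cells it was -0.031 to 0.15 for Prdm1 and -0.11 to 0.12 for Nanos3, and between F+CD24low D4 and D2 cells -0.087 to 0.027 for Nanos3. For Dnd1 it was -0.24 to 0.12 in T+CD24neg D4 and -0.15 to 0.040 in T+CD24low D2 cells against mESCs, -0.092 to 0.26 in T+CD24neg D4 compared with F+CD24high D4 and -0.047 to 0.13 in T+CD24low D2 compared with F+CD24low D2 cells. The change of Prdm1 with the day ranged between -0.31 and 0.14.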
